A study of Mus musculus with 8 samples.

Results

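The genes described here are the abundantly footprinted set that suspension cells and stroma of cultured mouse bone marrow had in common. Members were chosen by their level and by their stroma to suspension ratio in these same libraries. They had at least 500 CPM (a count divided by the library's total and multiplied by 1000000) in all 8 libraries. Their ratio of mean stroma CPM to mean suspension CPM also had to lie between 0.5 and 2. The rule took 117 of the 20154 UCSC known-gene IDs in the table, 0.581% of them, and all 117 passed the low-count filter that left 10157 IDs for testing. Levels and ratios are therefore given below as descriptions with no test. The rule did not compare the genotypes. Its floor of 500 CPM covered libraries of both, so an ID low in either genotype could be left out.

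Ribosome footprints are the pieces of mRNA that a translating ribosome shields from nuclease. The libraries came from bone marrow mononuclear cells of C57BL/6 mice at postnatal day 8, grown in medium with serum, thrombopoietin, FLT3 ligand and stem cell factor. The haematopoietic cells in suspension and the cells attached as stroma were harvested apart, from wild-type mice and from Dnmt2-/- mice, which lack an RNA methyltransferase that acts on certain tRNAs. This gave 4 groups of 2 libraries: wild-type suspension, Dnmt2-/- suspension, wild-type stroma and Dnmt2-/- stroma. The treatment, the strain and the age were the same in all groups. The number of mice behind a library is not given in the sources used here, so the spread within a group may be technical, and p-values measure only that spread. The labels number the libraries of a group 1 and 2. The 2 Dnmt2-/- stroma columns share a header, so they are called library a and library b, and neither was matched to a number. In such bulk samples, fewer cells of a type and less RNA per cell cannot be told apart.

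A footprint count rises with the amount of an mRNA, with the density of ribosomes on it and with the length of its coding sequence. In most dividing cells, the mRNAs with the most footprints are those of housekeeping proteins: the cytoskeleton, ribosomal proteins, translation factors, glycolytic enzymes and chaperones. RNA levels were not analysed here, so a high footprint level below means a high count, not a high rate of translation per mRNA. The table pairs no ID with a gene name, and 0 of its IDs were in the reference tables used here. Members are therefore called by their rank of mean CPM over the 8 libraries, with member 1 the highest, and only 4 IDs are printed. Neither the level of Dnmt2 nor the markers of the labelled cell types were analysed here, because both need names. Reads shared by near-identical gene copies could be split between IDs, which leaves the level of any single ID uncertain to that extent.

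The 117 members held a similar share of all footprints in every group. Between suspension and stroma this follows largely from the rule, which kept only IDs with similar levels in both. The rule did not compare the genotypes, though its floor of 500 CPM covered both. In wild-type suspension they held 23.9% and 22.5% of the counts, in libraries 1 and 2. In Dnmt2-/- suspension they held 24.0% and 22.8%. In wild-type stroma they held 24.1% and 22.5%, and in Dnmt2-/- stroma 24.2% (library a) and 22.4% (library b). Within each numbered group the library numbered 1 had the higher share, and the ranges of the 4 groups overlapped.

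The group means were 23.2% ± 1.04 (SD, n = 2) in wild-type suspension, 23.4% ± 0.848 (SD, n = 2) in Dnmt2-/- suspension, 23.3% ± 1.10 (SD, n = 2) in wild-type stroma and 23.3% ± 1.29 (SD, n = 2) in Dnmt2-/- stroma. The Dnmt2-/- mean exceeded the wild-type mean by 0.203 percentage points in suspension (exact permutation test, two-sided, p = 0.667). In stroma the Dnmt2-/- mean minus the wild-type mean was -0.00585 percentage points (exact permutation test, two-sided, p = 1.0). With 2 libraries against 2, this test cannot give a p below 0.333. With genotype labels exchanged within both fractions, the averaged difference was 0.0986 percentage points (exact permutation test over 36 arrangements, two-sided, p = 0.778), where the smallest possible p is 0.0556. Each genotype difference was smaller than the SD between libraries of a group. Library totals ran from 1713729 to 4025780 counts, so the exact (Clopper-Pearson) 95% interval of a share reached at most 0.0628 points to either side. Those intervals cover counting error only and leave out the spread between libraries. They treat each read as an independent molecule, which reads without molecular identifiers need not be, so they may be too narrow.

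**Figure D1:**
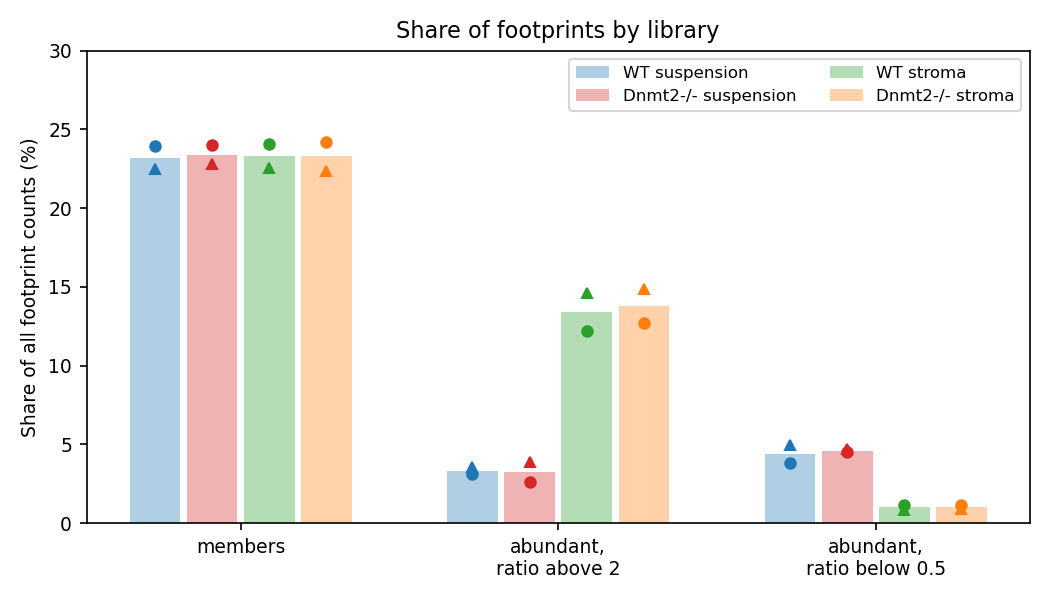
Share of all footprint counts (%, vertical axis) held by the 117 members and by the abundant IDs outside the ratio limits, with 1 bar per group for the mean; the circle is replicate 1 or library a and the triangle is replicate 2 or library b. The members' bars lie at 23.2% to 23.4%, and the other sets differ between suspension and stroma; the ratio limits largely fix both.

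The members were 117 of the 144 IDs that reached 500 CPM in all 8 libraries. The other abundant IDs lay outside the ratio limits: 19 had a ratio above 2 and 8 a ratio below 0.5. The 19 held 3.34% ± 0.354 of counts in wild-type suspension and 13.4% ± 1.72 in wild-type stroma (SD, n = 2 in each). The 8 held 4.39% ± 0.832 and 0.997% ± 0.185 in the same groups. At the next level down were 831 IDs with a ratio inside the same limits. Their lowest CPM of the 8 libraries was at least 100 and below 500, so single libraries could exceed 500. The 831 IDs held 24.5% ± 1.93 in wild-type suspension and 22.5% ± 1.54 in wild-type stroma (SD, n = 2 in each). The members thus carried about as many footprints as a set of IDs that was several times larger.

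Among themselves the members were uneven. Their mean CPM ran from 584.6 to 31620, with a median of 1171. Member 1 alone took 13.6% of the members' summed CPM, the 10 highest took 39.5%, and 18 members made up 50% of it. Members made up 6 of the 10 most abundant IDs of all, 10 of the top 20 and 61 of the top 100. The lowest member stood at rank 242. These levels are CPM and not per length, so they do not rank the genes by mRNA or protein.

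Member 1 (uc009ajk.1) was the most abundant ID of the whole table. It had 33704 and 32392 CPM in wild-type suspension, 31496 and 33571 in Dnmt2-/- suspension, 34451 and 27483 in wild-type stroma, and 35221 and 24639 in Dnmt2-/- stroma. Its suspension libraries lay close together, its stroma libraries lay further apart, and the genotypes overlapped in both fractions. Its ratio of stroma to suspension was 0.929.

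Member 2 (uc007hda.1) had 9873 and 13135 CPM in wild-type suspension, 11195 and 12826 in Dnmt2-/- suspension, 14882 and 12604 in wild-type stroma, and 15027 and 13406 in Dnmt2-/- stroma. Library 1 was the lower of the pair in suspension and the higher in wild-type stroma, so the order by number turned between fractions. Member 3 (uc008maf.1) had 4291 and 7216 CPM in wild-type suspension, 5037 and 7930 in Dnmt2-/- suspension, 7279 and 11904 in wild-type stroma, and 8540 and 11932 in Dnmt2-/- stroma. For this member the libraries of 1 group differed about as much as the fractions did, and its ratio of 1.62 was the highest among the first 10 members. Member 4 (uc007msi.1) had 6923 and 6623 CPM in wild-type suspension, 7056 and 7474 in Dnmt2-/- suspension, 6817 and 5791 in wild-type stroma, and 6546 and 5522 in Dnmt2-/- stroma. Both of its Dnmt2-/- suspension libraries were above both wild-type ones, and in stroma the genotypes overlapped.

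Of the next members, 5 and 8 differed more between library numbers than between genotypes or fractions. Member 5 had 3619, 4505 and 3714 CPM in the libraries numbered 1 of wild-type suspension, Dnmt2-/- suspension and wild-type stroma, against 6441, 7002 and 8127 in those numbered 2. Member 8 went the other way, with 7140, 7606 and 7092 CPM in the libraries numbered 1 against 3829, 3791 and 4161 in those numbered 2. The Dnmt2-/- stroma libraries of member 5 had 4386 CPM (a) and 9524 CPM (b), and those of member 8 had 6631 CPM (a) and 3840.2 CPM (b). Neither member separated genotypes or fractions. Members 7 and 9 were lower in every stroma library than in any suspension library. Member 7 lay between 5916 and 9534 CPM in suspension and between 3932 and 4507 CPM in stroma, and member 9 between 5817 and 6208 CPM in suspension and between 3849 and 5048 CPM in stroma. Members 6 and 10 overlapped between fractions, with ratios of 0.992 and 0.915.

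**Figure D2:**
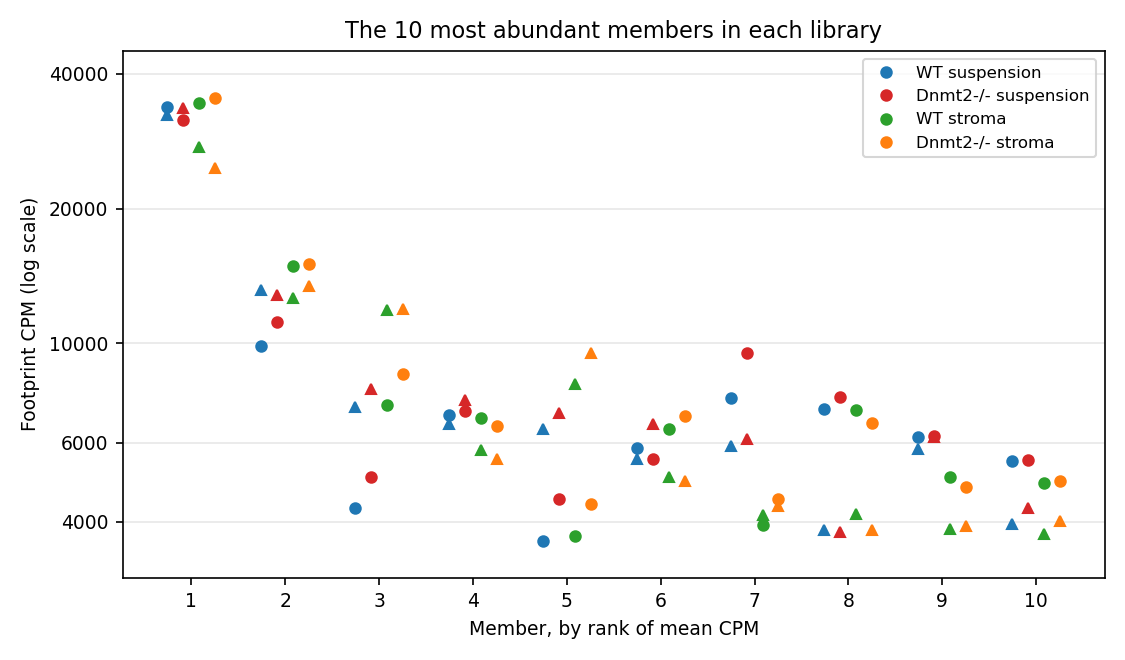
Footprint CPM (log scale) of the 10 most abundant members in each of the 8 libraries, coloured by group; the circle is replicate 1 or library a and the triangle is replicate 2 or library b. For members 3, 5 and 8 circles and triangles stand apart in every group, while wild type and Dnmt2-/- of the same fraction lie closer together by symbol.

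The genotype comparison asks how far footprint levels differ when Dnmt2 is missing. In suspension, 0 of the 117 members passed an adjusted p of 0.05 in edgeR's quasi-likelihood test, fitted to all 10157 IDs (background: 0% of the tested IDs called). At an unadjusted p under 0.05 there were also 0 members and 64 of the 10157 tested IDs. A share of 0.05 would fall there if no ID differed and the spread were well estimated, so this test was conservative. It takes no account of replicate numbers, so library differences shared by both genotypes widen its spread. Both alternatives, limma-voom and the Wald test of DESeq2, likewise called 0 members and had 0 at an unadjusted p under 0.05. The log2 difference, Dnmt2-/- minus wild type, ran from -0.31 to 0.47 over the members. Its median absolute value was 0.08, against 0.14 over all tested IDs and 0.08 over the 831 IDs of the next level. The difference was above 0 for 58 members and below 0 for 59 under TMM scaling. TMM, the trimmed mean of M-values, aligns the bulk of IDs between libraries. With raw library sizes the difference was above 0 for 49 and below for 68. Both Dnmt2-/- libraries were above both wild-type ones for 5 of the 117 members (background: 7.87% of all tested IDs). Both were below for 8 of the 117 (background: 9.61% of all tested IDs).

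The member with the lowest p in suspension was member 31. It had 1351 and 1402 CPM in wild-type suspension and 1718 and 2040.0 CPM in Dnmt2-/- suspension, so the genotypes did not overlap. Its log2 difference was 0.47 ± 0.24 (SE), with a 95% interval of -0.06 to 1.01 (edgeR, adjusted p = 1.00). In stroma it had 1872 and 1800 CPM in wild type and 1986 and 1969 CPM in Dnmt2-/-, again with no overlap, and the log2 difference was 0.12 ± 0.24 (SE). The difference between those 2 contrasts was itself -0.35 ± 0.33 (SE) on the log2 scale (interaction term, edgeR, adjusted p = 1.00).

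Member 72 had the same fitted difference, 0.47, with a wider SE of 0.34. Its levels were 1197 and 742 CPM in wild-type suspension and 1763 and 894 CPM in Dnmt2-/- suspension, where the libraries of each genotype differed from each other more than the genotypes did. The next largest positive value was that of member 7, at 0.24 ± 0.29 (SE). The largest negative value was that of member 21, with 3090.3 and 3217 CPM in wild-type suspension against 2380.3 and 2613 CPM in Dnmt2-/- suspension. These did not overlap, and the log2 difference was -0.31 ± 0.26 (SE), with a 95% interval of -0.90 to 0.27. Members 88 and 83 followed at -0.20 and -0.19. None of these 6 members passed the test, which takes no account of replicate numbers. With the number in the fit, the call of members 31 and 72 depended on which libraries were fitted.

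In stroma the members again gave 0 calls in edgeR's test (background: 0% of the tested IDs called), with 0 members and 43 of all tested IDs at an unadjusted p under 0.05. The same held for limma-voom and DESeq2, with 0 calls and 0 members at an unadjusted p under 0.05. The log2 differences, Dnmt2-/- minus wild type, ran from -0.18 to 0.25. Their median absolute value was 0.04, against 0.14 over all tested IDs and 0.06 over the 831 IDs of the next level. The differences were above 0 for 53 members and below 0 for 64 under TMM scaling. With raw library sizes they were above 0 for 43 and below for 74. The groups did not overlap for 5 of the 117 members with higher Dnmt2-/- values (background: 9.41% of all tested IDs). Another 3 of the 117 had lower ones without overlap (background: 10.7% of all tested IDs).

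The largest positive stroma difference was that of member 30, which had 1998 and 1814 CPM in wild type and 2125 and 2375 CPM in Dnmt2-/-. Both Dnmt2-/- libraries were higher, and the log2 difference was 0.25 ± 0.34 (SE). Member 5 followed at 0.24 ± 0.53 (SE), and member 49 at 0.23 ± 0.22 (SE), the latter with the lowest p among the members. The largest negative values were those of member 56 at -0.18 ± 0.40 (SE), member 15 at -0.16 ± 0.28 (SE) and member 77 at -0.15 ± 0.39 (SE). For these 3 members the genotypes overlapped between libraries. All 6 differences were within 2 SE of 0.

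The genotype by fraction interaction, which asks whether the genotype difference was the same in stroma as in suspension, gave 0 called members (background: 0% of the tested IDs called) and 0 at an unadjusted p under 0.05, against 46 of all tested IDs. Its values over the members ran from -0.45 to 0.23 on the log2 scale. The genotype difference averaged over both fractions, which draws on 4 libraries a side, gave 0 called members (background: 0% of the tested IDs called) and 0 at an unadjusted p under 0.05, against 62 of all tested IDs. Averaged values ran from -0.20 to 0.30, with 56 members above 0 and 61 below under TMM scaling, 44 and 73 with raw library sizes, and 41 and 76 with libraries scaled by the members' own sum. In both contrasts limma-voom and DESeq2 called 0 members, with 0 at an unadjusted p under 0.05.

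A lack of calls does not show that levels were the same, so the intervals of the differences are given next. The 95% interval of a member's genotype difference reached 1.56-fold to each side of its estimate in suspension (median over the 117 members, with 1.40-fold the narrowest and 3.43-fold the widest), and likewise 1.56-fold in stroma. Over all tested IDs the median was 1.69-fold in suspension and 1.71-fold in stroma. A difference of 2-fold in either direction lay outside the interval for 102 members (87.2%) in suspension, against a background of 56.4% of all tested IDs. In stroma it did so for 102 members (87.2%) as well, against 55% of all tested IDs. Among the 831 IDs of the next level it did so for 91.3% in suspension and 91.9% in stroma. Among the members the widest interval in both fractions was that of member 37, from -1.88 to 1.67 on the log2 scale in suspension.

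In the fit without replicate numbers, narrower bounds held for few members in a single fraction. Among the 831 IDs of the next level the whole interval lay within 1.5-fold for 27.7% in suspension and 33.3% in stroma. For the members it did so for 14 in suspension (12.0%, against 8.36% of all tested IDs) and for 22 in stroma (18.8%, against 8.94%). These counts were not stable: leaving out any 1 of the 8 libraries took the suspension count to 0 or 1 and the stroma count to between 0 and 25, and both were 0 without the low-count filter. With the replicate number in the fit, the suspension count was 115 on the 4 suspension libraries and 107 on the 6 numbered libraries. The fit on 4 libraries rests on little replication. Averaged over the fractions, the interval reached 1.37-fold to each side (median). It lay within 1.5-fold for 79 members (67.5%, against 38% of all tested IDs) and within 2-fold for 115 (98.3%, against 78.4%). Among the 831 IDs of the next level these shares were 78.3% and 98.8%. Without the low-count filter the averaged interval lay within 1.5-fold for 108 members. Leaving out any 1 library took the count of 79 to between 39 and 62. For the interaction the interval reached 1.87-fold. It lay within 2-fold for 56 members (47.9%, against 24.2% of all tested IDs and 64.9% of the 831). No interval lay within 1.25-fold for any member in any of the 4 contrasts, against 0.0886% of all tested IDs in the averaged contrast and 0% in the other 3.

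**Figure D3:**
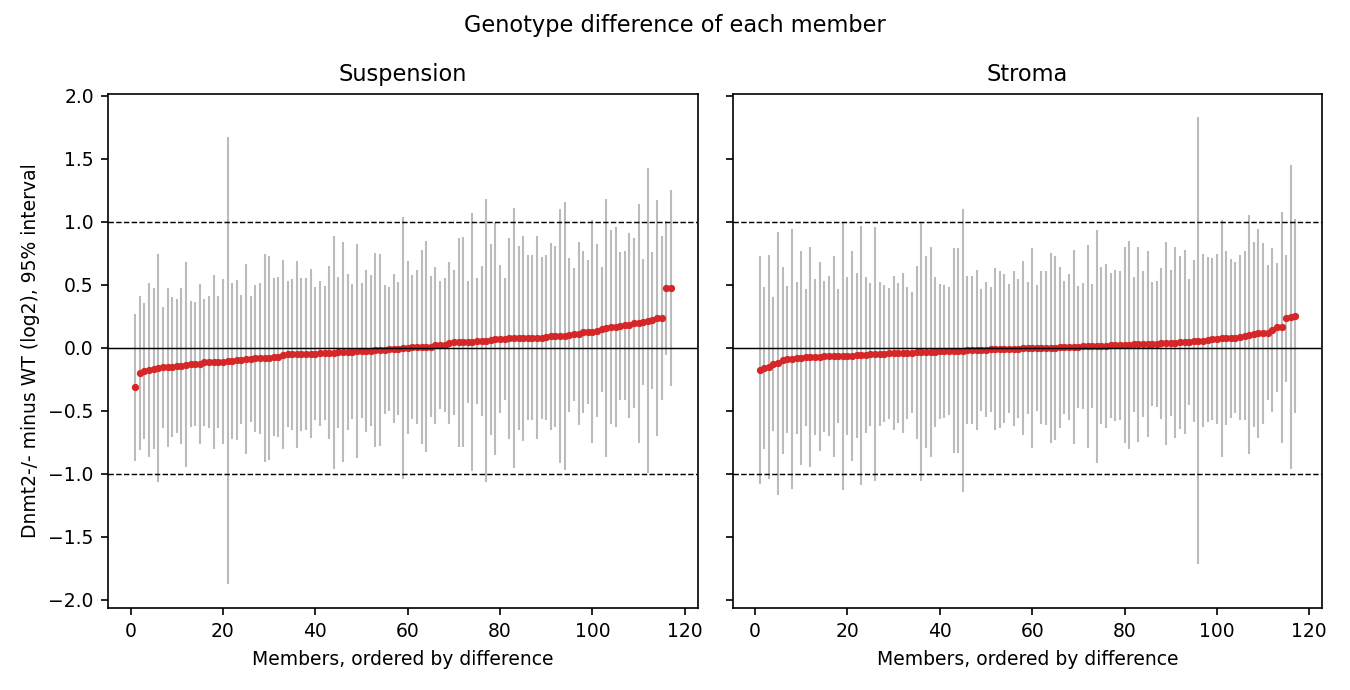
Log2 difference, Dnmt2-/- minus wild type, of each of the 117 members (red points, ordered by value within each panel) with its 95% interval from the edgeR fit (grey bars), in suspension (left) and stroma (right); dashed lines mark 2-fold. All points lie between -0.31 and 0.47, every interval crosses 0, and 102 of 117 intervals lie between the dashed lines in each panel.

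Counting error was small beside these intervals. The lowest count of any member in any library was 896, which has a counting error of 3.34%, and the highest was 135686. The counting SD of a difference between libraries of a group had a median of 0.03 to 0.04 on the log2 scale over the members. The observed differences were larger. Libraries of the same group differed by a median of 1.32-fold in wild-type suspension, 1.31-fold in Dnmt2-/- suspension, 1.24-fold in wild-type stroma and 1.23-fold in Dnmt2-/- stroma. Relative to the counting SD the differences were 10.7, 11.2, 8.86 and 7.59 times as large, as medians over the members, where all tested IDs had 1.70, 1.63, 1.27 and 1.18. The counting SD is smaller at higher counts. In fold terms all tested IDs differed about as much as the members, by medians of 1.31, 1.36, 1.26 and 1.26 in the same order. The 831 IDs of the next level, with fewer counts per ID, had narrower intervals than the members, reaching 1.47-fold to each side in suspension (median).

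The spread between libraries of a group varied widely from member to member. Member 79 was among the steadiest, with 978 and 1006 CPM in wild-type suspension, 906 and 882 in Dnmt2-/- suspension, 847 and 892 in wild-type stroma, and 886 and 875 in Dnmt2-/- stroma. Its SD of log2 CPM within groups was 0.03. Members 34 and 116 followed at 0.04 and 0.06, and the 8 values of member 116 differed by at most 1.17-fold. Member 37 was the least steady, with 2746 and 878 CPM in wild-type suspension, 2566 and 761 in Dnmt2-/- suspension, 2053 and 698 in wild-type stroma, and 2166 and 667 in Dnmt2-/- stroma. In every group its first-listed library was about 3 times the other, and neither genotypes nor fractions were separated. Its within-group SD was 1.18, ahead of members 51 and 5 at 0.70 and 0.67. The median within-group SD over the members was 0.26, against 0.34 over all tested IDs and 0.23 over the 831 IDs of the next level. Across all 8 libraries the highest level was less than 2-fold above the lowest for 81 of the 117 members. The same held for 550 of the 831 IDs of the next level and 3474 of the 10157 tested IDs. The highest was less than 1.25-fold above the lowest for 5, 26 and 85 in the same order. The ratio limits of the rule restrict this spread for the members and the 831 IDs.

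The differences between libraries of a group recurred from group to group. Library 2 was above or below library 1 in the same direction in wild-type and Dnmt2-/- suspension for 108 of 117 members, and in wild-type suspension and wild-type stroma for 87. In all 3 numbered groups library 2 was higher for 31 members, lower for 49 and mixed for 37. For 11 members it differed by over 1.5-fold in the same direction in all 3. In stroma, library b minus library a of Dnmt2-/- had the sign of library 2 minus library 1 of wild type for 107 members. What the numbers stand for is not given in the sources used here.

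As medians over the members, suspension libraries with the same number differed less between genotypes than libraries of 1 genotype differed from each other. Within number 1 the Dnmt2-/- and wild-type libraries differed by a median of 1.06-fold over the members (1.13-fold over all tested IDs), and within number 2 by 1.08-fold (1.16-fold). Over the 831 IDs of the next level these medians were 1.07-fold and 1.08-fold. Among the 831 IDs of the next level the difference was 1.25-fold or less for 96.9% within number 1 and 94.5% within number 2. For the members the difference was 1.25-fold or less for 111 within number 1 (94.9%, against 72.1% of all tested IDs) and for 115 within number 2 (98.3%, against 66.4%). It was over 1.5-fold for 0 members in either. The absolute difference was 3.04 times the counting SD within number 1 and 2.54 times within number 2 (medians over the members). Between number 1 and number 2 the direction was the same for 74 of 117 members, 29 higher and 45 lower in Dnmt2-/-, and for 5336 of the 10157 tested IDs. Among the 831 IDs of the next level the direction was the same for 506, 141 higher and 365 lower. Member 31 was the 1 member over 1.25-fold higher in both, and 0 members were over 1.25-fold lower in both. The same counts were 2 and 0 among the 831 IDs of the next level, and 422 and 324 among the 10157 tested IDs.

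**Figure D4:**
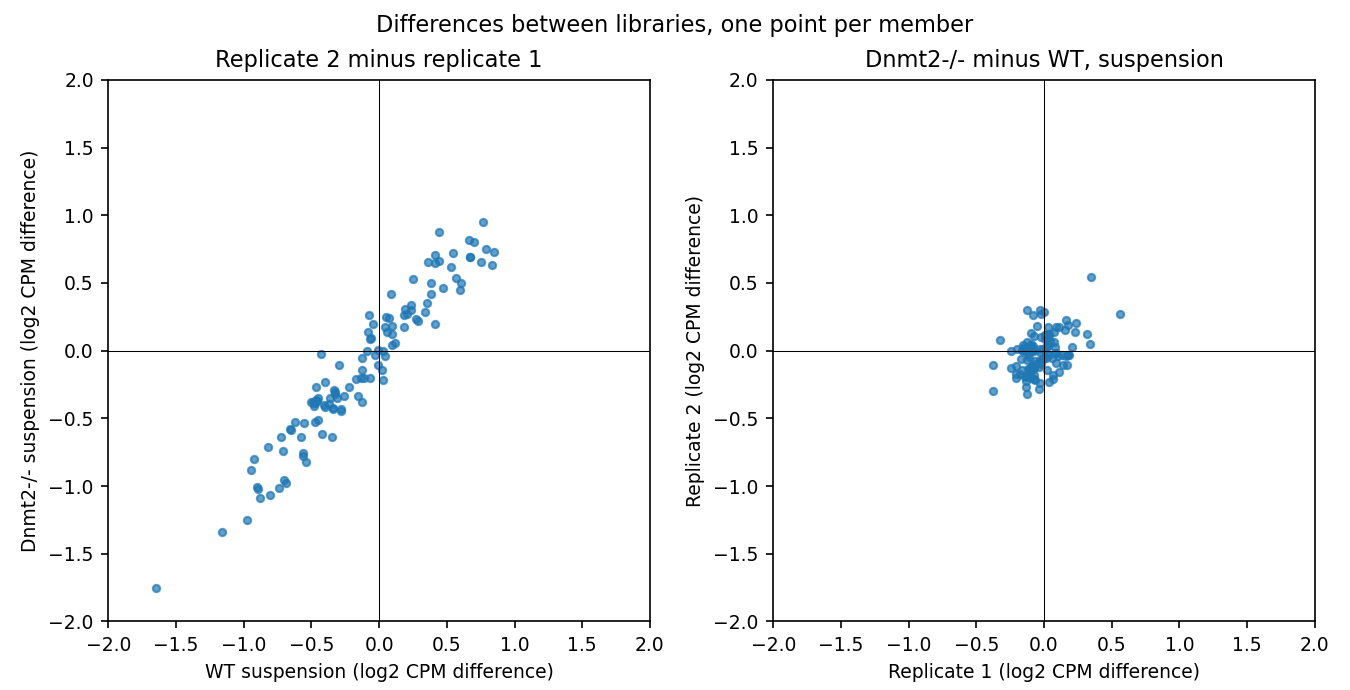
Differences in log2 CPM between libraries, with 1 point per member and the same scale on both panels. Left, replicate 2 minus replicate 1 in Dnmt2-/- suspension (vertical) against wild-type suspension (horizontal), where the points follow the diagonal and reach beyond 1; right, Dnmt2-/- minus wild type in suspension within replicate 2 (vertical) against replicate 1 (horizontal), where all points lie between -0.38 and 0.56.

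Between stroma and suspension the members' ratios were limited by the rule, and they are described without a test. Within the limits of 0.5 and 2 the ratios centred near 1, with a median of 0.992, quartiles of 0.831 and 1.20 and a range of 0.537 to 1.92. There were 58 members above 1 and 59 below. For 73 members the ratio lay between 0.8 and 1.25, and for 93 between 0.67 and 1.5. All 4 stroma libraries were above all 4 suspension libraries for 19 of the 117 members (background: 14.3% of all tested IDs). All 4 were below them for 17 of the 117 (background: 27.9% of all tested IDs). Because the rule used this contrast, nothing is read from these counts.

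The count of members above and below 1 depended on the scaling. By column sums, wild-type stroma minus suspension was above 0 on the log2 scale for 58 members and below for 59. Under TMM scaling it was above 0 for 82 and below for 35. The median of all tested IDs was -0.26 by column sums and -0.03 under TMM, and that of the members was 0.00 and 0.22. For members near a ratio of 1 the direction between fractions therefore changed with the scaling.

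The ratios were much the same in both genotypes. In wild type alone they ran from 0.543 to 1.86 with a median of 0.998, and in Dnmt2-/- alone from 0.514 to 1.98 with a median of 0.985. That 0 members left the limits of 0.5 and 2 in either genotype follows largely from the rule, which limited the ratio over both. The ratio in Dnmt2-/- divided by that in wild type was within 1.25-fold of 1 for 115 members, and the widest was 1.36-fold. On the log2 scale the median absolute interaction value was 0.09 over the members, 0.09 over the 831 IDs and 0.19 over all tested IDs. Wild-type libraries of the same number gave the same direction between fractions in both numbers for 90 members and opposite directions for 27. A difference of over 2-fold between fractions arose for 2 members in number 1 and for 7 in number 2. The 95% interval of the fold between fractions reached 1.56-fold to each side in each genotype (median over the members).

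**Figure D5:**
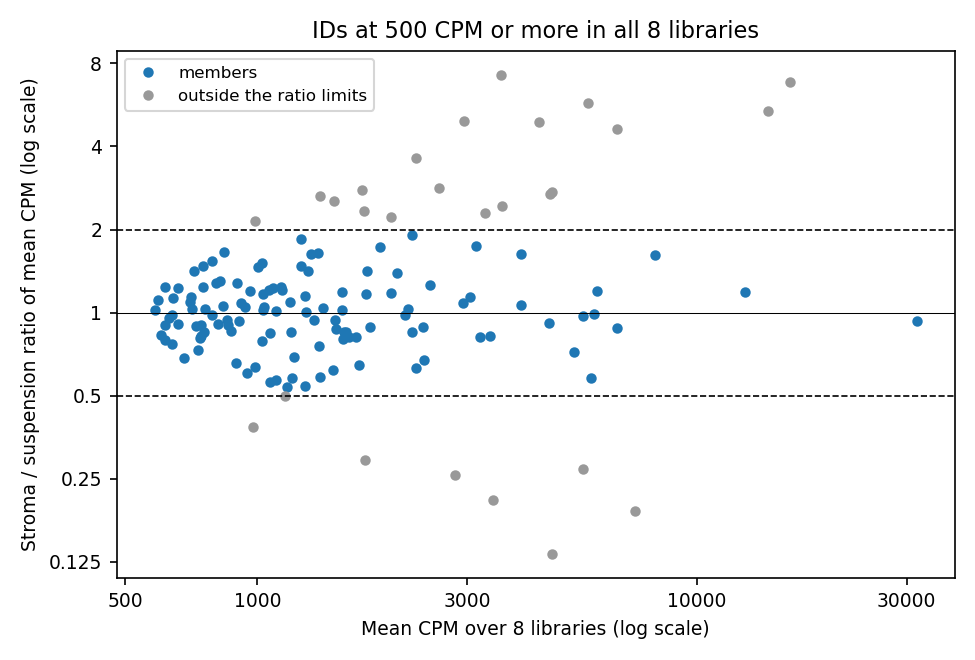
Ratio of mean stroma CPM to mean suspension CPM (log scale) against mean CPM over 8 libraries (log scale) for the 144 IDs at 500 CPM or more in every library; blue points are the 117 members, grey points the 27 IDs outside the ratio limits (dashed lines). The members' ratios lie from 0.537 to 1.92 and gather around 1 at all levels.

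At the limit of 500 CPM, members and non-members lay close together. The lowest single value of a member was 503 CPM (member 110), followed by 509 (member 89) and 509.7 (member 104), while the nearest IDs outside had 495, 492 and 491 CPM. At the ratio limits IDs were sparser. The ratios nearest to 0.5 were 0.537, 0.543 and 0.559 (members 59, 52 and 66) inside and 0.498, 0.383 and 0.292 outside. Those nearest to 2 were 1.92, 1.84 and 1.74 (members 22, 54 and 15) inside and 2.15, 2.21 and 2.30 outside. Member 59 had 1905 and 1168 CPM in wild-type suspension, 1992 and 1029 in Dnmt2-/- suspension, 1145 and 572 in wild-type stroma, and 1026 and 533 in Dnmt2-/- stroma. Member 22 had 1897 and 1362 CPM in wild-type suspension, 1645 and 1259 in Dnmt2-/- suspension, 3380.5 and 2679 in wild-type stroma, and 3136 and 2626 in Dnmt2-/- stroma. For member 59 the fractions overlapped, since the second suspension library of Dnmt2-/- was below the first stroma library of wild type, and for member 22 every stroma library was above every suspension library.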

How the data were processed

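The authors deposited 1 table of whole-number counts for 20154 UCSC known-gene IDs and 8 libraries, per the file headers. The submitters' processing notes name Bowtie and mouse build mm9. Not given in the sources used here are the Bowtie version, the counter, the gene models, the strand setting and how multiply matching reads were treated. Of the IDs, 6101 had no count. Libraries were grouped by genotype and fraction from the labels. CPM used column sums. Genotype contrasts, their average and the interaction were fitted with edgeR 4.0.16 (R 4.3.3; glmQLFit, TMM factors of 0.909 to 1.11, filterByExpr with a minimum count of 10, 4 group means, no replicate block) over all 10157 IDs left. P-values were adjusted by Benjamini-Hochberg over those IDs with a threshold of 0.05. The 95% intervals came from the model's standard error. The code was tested on simulated counts. Alternatives were other scalings, no filter, limma 3.58.1 with voom, DESeq2 1.42.0, leaving out each library, a replicate block and other limits of the rule. Single shares were compared by exact permutation tests (scipy 1.17.1). No 2 libraries agreed within sampling noise over the members: the lowest chi-square per degree of freedom was 10.3, between wild-type stroma replicate 1 and Dnmt2-/- stroma library a. The described members were the 10 most abundant, the 3 largest differences each way per fraction, the 3 lowest and highest in spread and the 3 nearest each limit; printed IDs were limited to the 2 most abundant with a ratio above 1 and the 2 below. Members and lists were chosen with earlier results of these data known. Gene lists and cell type markers could not be matched to IDs.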

Additional observations from a re-analysis of the deposited data

How the results depend on the processing

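The count of 0 called members held in all 4 contrasts under every other scaling, tool, filter and omission of a library that was run. The exception was suspension with the replicate block on the 4 suspension libraries alone, with 2 of 117 members called and 110 of 9868 IDs: member 31 (log2 difference 0.46, edgeR adjusted p = 0.00105) and member 72 (0.44, edgeR adjusted p = 0.00318). On the 6 numbered libraries the replicate block gave 0 called members. Members whose interval lay within 1.5-fold numbered 115 with the block on 4 libraries and 107 with it on 6, against 0 on the same 6 without it and 14 without it on all 8. The block on 4 libraries leaves the fewest residual degrees of freedom of all fits, so its calls and intervals rest on little replication. Replicate 2 minus replicate 1 correlated across the 117 members between wild-type and Dnmt2-/- suspension (Pearson r = 0.962), and between wild-type suspension and stroma (0.679); members share libraries and depth. The labels do not say that a number marks a shared animal or day, so the numbers were not taken as pairs. No paired analysis was run for stroma, the interaction or the average because the Dnmt2-/- stroma columns carry no number of their own. Over the members, chi-square per degree of freedom was 10.3 between library a and wild-type stroma replicate 1, and 18.7 between library b and replicate 2. For the crossed pairs it was 199 (a with 2) and 277 (b with 1). A fit that takes a as number 1 and b as number 2 on these values was not run.

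Without the low-count filter 0 members had an interval within 1.5-fold in suspension, 0 in stroma and 108 in the average. Over the 14053 IDs then tested the counts were 34, 17 and 4946. Leaving out 1 library gave 0 to 1 in suspension, 0 to 25 in stroma, 0 in the interaction and 39 to 62 in the average; each such fit has fewer residual degrees of freedom, and a lone library is assumed to vary like the others. The rule took 309 IDs with 32.5% of counts at 250 CPM, 46 with 16.8% at 1000 CPM, and 93 with 18.6% for ratios of 0.67 to 1.5. Leaving out 1 library gave 114 to 121 members. The members' median log2 ratio of stroma to suspension was -0.01 by column sums, 0.20 under TMM and 0.20 under RLE scaling, and -0.10 to 0.03 leaving out 1 library. Counting error was at most 3.34% for any count of a member, and each group had 2 libraries.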
